A study of Mus musculus with 2 samples.

Results

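Cytochrome c oxidase, complex IV of the respiratory chain, passes electrons from cytochrome c to oxygen in the mitochondrial inner membrane. Its catalytic core is encoded by mitochondrial DNA and carries heme A and copper. Nuclear-encoded assembly factors make the heme A, deliver the copper, insert and join the subunits, and maintain and translate the mitochondrial messages. The heart depends on this chain for most of its ATP, and inherited defects in several of the factors cause cardiomyopathy or Leigh syndrome in humans.

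The expression of 10 such factors was examined by RNA-seq in Med1fl/fl and csMed1-/- mouse heart, and the genes were taken by symbol. Of the 10 symbols, 9 had a row of their own among the 22882 gene symbols of the deposited values, namely Cox10, Cox15, Cox17, Cox11, Sco1, Surf1, Cox18, Lrpprc and Taco1. The other, Sco2, shared 1 row with Tymp, and its own level could not be read. Both groups were untreated C57BL6/J mice of mixed sex, 23 days old. Med1fl/fl mice carry a floxed allele of Med1, a subunit of the Mediator complex, and served as control. In csMed1-/- mice the floxed allele is recombined by Cre driven from the α-myosin heavy chain promoter, so the deletion begins late in gestation and is directed to cardiomyocytes, while the promoter is not active in the fibroblasts, vessels and blood cells of the same hearts. Heart RNA of 5 mice was pooled for each genotype and made into 1 library.

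The values are FPKM, fragments set per kilobase of transcript and per library size. This puts genes of different length on one scale, with less certainty for short transcripts and for those that share sequence. With a single library for each genotype, the differences have neither an error nor a test, and neighbouring levels cannot be ranked against a spread. A difference was counted when it reached 2-fold, the fold that the study uses. The study also set a false discovery rate cutoff, which was not applied here, so counts of genes are not comparable with its own. Med1 had 3.38 FPKM in the Med1fl/fl library and 0.412 FPKM in the csMed1-/- library. Read totals were not used here and the depth behind single values is unknown. By the steps among the lowest values, the csMed1-/- library was about 1.39 times as deep, provided that only mapped fragments set the scaling.

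Of the 9 assembly factors with their own row, 6 were at least 2-fold lower in csMed1-/- heart, 3 were within 2-fold and 0 were at least 2-fold higher. Among all 10489 genes kept (detected in each library and reaching 1 FPKM in at least 1 of them), 18.0% were at least 2-fold lower and 13.6% at least 2-fold higher. On the log2 scale the csMed1-/- to Med1fl/fl ratio had a median of -1.32 over the 9 factors and of -0.07 over all these genes, whose quartiles were -0.72 and 0.55. The lower genes were both enzymes of heme A synthesis (Cox10 and Cox15), 2 proteins that act late in copper delivery (Cox11 and Sco1) and both genes of mitochondrial RNA and translation (Lrpprc and Taco1). The genes within 2-fold were the copper chaperone Cox17, Surf1 and Cox18. In whole-heart RNA, fewer cardiomyocytes and less of a message in each cardiomyocyte cannot be told apart.

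**Figure D1:**
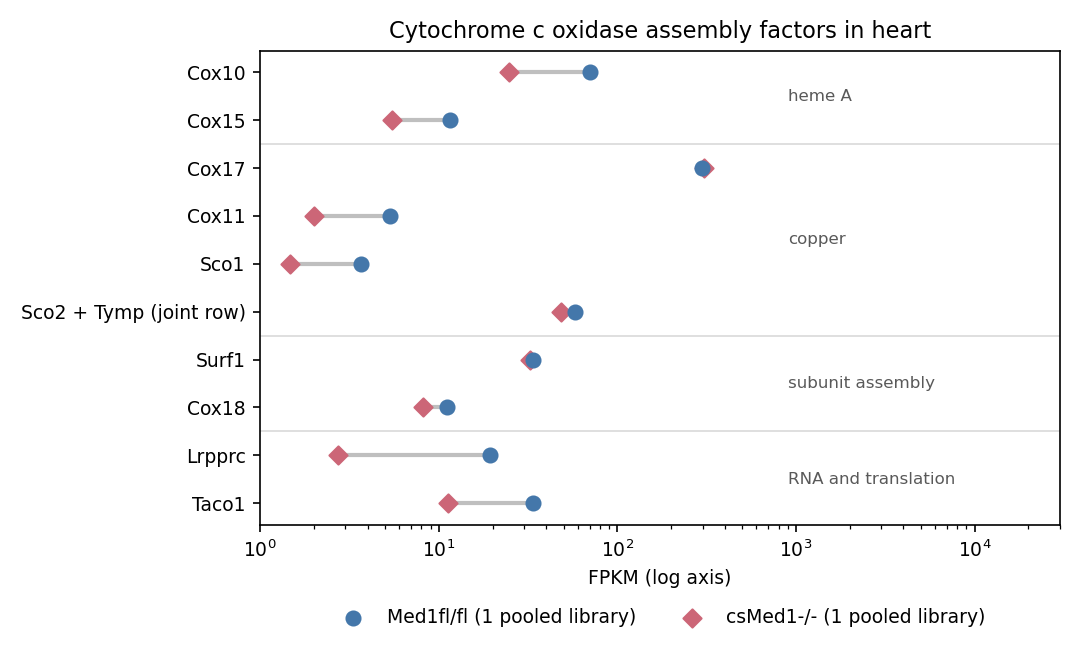
FPKM of each assembly factor (log axis) in the Med1fl/fl library (circles) and the csMed1-/- library (diamonds), 1 pooled library per genotype and so no error bars, with genes grouped by role. Lrpprc shows the widest gap, from 19.5 to 2.72 FPKM, while the symbols of Cox17 and Surf1 nearly coincide.

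Cox10 encodes the farnesyltransferase that turns heme B into heme O, the first step toward heme A. It lies on the minus strand of chromosome 11 (chr11:63962627-64079468 in GRCm38, the assembly also called mm10) and its reference transcript has 7 exons. Its level was 70.1 FPKM in Med1fl/fl and 24.8 FPKM in csMed1-/- heart, 2.82-fold lower (log2 ratio -1.50). Cox10 is the member for which the study designed qPCR primers, and these are shown, 5′ to 3′, because they fix which part of the message was amplified:

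Cox10 forward primer: ttcctcaagcgcatgTATGT

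Cox10 reverse primer: CTCTAGCCTGCCCTGAAGAC

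Capitals mark the bases that lie in exon 3. Both primers matched without a mismatch to transcripts of a single gene. The forward primer crosses the boundary of exons 2 and 3, with 15 bases in exon 2 and 5 in exon 3. Together they span 118 bases of the spliced message. By qPCR, the study reports Cox10 as significantly lower in csMed1-/- heart.

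Cox15 encodes heme A synthase, which oxidises heme O to heme A. It lies on the minus strand of chromosome 19 (chr19:43733254-43753000, 9 exons). Its level was 11.6 FPKM in Med1fl/fl and 5.45 FPKM in csMed1-/- heart, 2.12-fold lower (log2 ratio -1.09). It was the closest of the lower genes to the 2-fold line, and a pseudocount of 1 FPKM placed it just inside at a log2 ratio of -0.96. Cox10 stood 6.05-fold above Cox15 in control and 4.56-fold above it in csMed1-/- heart, so the gene of the first step had the higher level in both.

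The copper route did not move together. Cox17, the small chaperone of the intermembrane space that hands copper to Sco1 and Cox11, was the most abundant of the factors in both libraries. It had 298.7 FPKM in Med1fl/fl and 305.3 FPKM in csMed1-/- heart (log2 ratio 0.03, chr16:38346991-38352763, plus strand), and 54.5% of all kept genes had a lower ratio. Cox11, which serves the CuB site of the COX1 subunit, had 5.31 and 1.99 FPKM, 2.67-fold lower (log2 ratio -1.42, chr11:90638173-90644931, plus strand). Sco1, which serves the CuA site of the COX2 subunit, had 3.69 and 1.48 FPKM, 2.50-fold lower (log2 ratio -1.32, chr11:67052670-67067070, plus strand). Cox11 and Sco1 had the lowest levels of the 9 genes in control as well as in csMed1-/- heart. The level of Cox17 was 81.0 times that of Sco1 in control and 207.0 times in csMed1-/- heart. Cox17 alone made up 61.3% of the summed FPKM of the 9 genes in control and 77.6% in csMed1-/- heart, and the sum of the other 8 was 188.8 and 88.3 FPKM. Its transcript has only 444 bases, and 52.7% of its 50-nt stretches also occur in the gene Gm21987. The level of Cox17 beside other genes is therefore less certain. With a pseudocount of 1 FPKM, Sco1 moved inside 2-fold (log2 ratio -0.92) and Cox11 stayed outside it (-1.08).

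Sco2 encodes the paralogue of Sco1 that acts on the same CuA site. Its row, held jointly with Tymp (thymidine phosphorylase), had 57.7 FPKM in Med1fl/fl and 48.3 FPKM in csMed1-/- heart (log2 ratio -0.26). In the GENCODE M21 annotation, 73.2% of the 50-nt stretches of the Sco2 reference transcript also occur in Tymp transcripts, and the joint row does not say how much of its value came from either gene. On the opposite strand, 71.5% of them occur in Ncaph2.

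Surf1 encodes an inner membrane protein needed early in the assembly of the COX1 subunit, and Cox18 encodes the translocase that exports the tail of the COX2 subunit across the membrane. Surf1 (chr2:26913381-26916530, minus strand) had 33.8 FPKM in Med1fl/fl and 32.4 FPKM in csMed1-/- heart, a log2 ratio of -0.06. Cox18 (chr5:90214724-90224001, minus strand) had 11.1 and 8.16 FPKM, a log2 ratio of -0.44. Both were within 2-fold. In control heart Cox10 was more abundant than Surf1, while in csMed1-/- heart Surf1 stood 1.30-fold above Cox10.

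Lrpprc encodes an RNA-binding protein that, with Slirp, stabilises mitochondrial messages, and a founder mutation in its human counterpart causes a form of Leigh syndrome with cytochrome c oxidase deficiency. It showed the largest difference of the 9 genes, with 19.5 FPKM in Med1fl/fl and 2.72 FPKM in csMed1-/- heart, 7.16-fold lower (log2 ratio -2.84). Of all kept genes, 2.12% had a lower ratio. The gene lies on the minus strand of chromosome 17 (chr17:84705247-84790789) and has 38 exons. Taco1, a translational activator of the COX1 message, had 33.8 and 11.3 FPKM, 2.98-fold lower (log2 ratio -1.58, chr11:106066061-106073612, plus strand). Slirp, the binding partner of Lrpprc, was within 2-fold with 24.6 FPKM in Med1fl/fl and 28.7 FPKM in csMed1-/- heart. The level of Slirp was 1.27 times that of Lrpprc in control and 10.5 times in csMed1-/- heart. The mitochondrially encoded messages on which these proteins act were not analysed here.

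The alternative settings moved Sco1, Lrpprc and Cox11 most. Sco1 lay between -1.36 and -0.92, Cox11 between -1.46 and -1.08 and Cox15 between -1.13 and -0.96 on the log2 scale. Lrpprc was between -2.88 and -2.46, Taco1 between -1.62 and -1.50, and Cox10 between -1.53 and -1.43. Among the lower genes other than Lrpprc, the ranges of genes next to each other in order overlapped. A scaling shifts every gene alike, so this overlap does not show a change of order. Only Sco1 and Cox15 changed places, with a pseudocount of 1 FPKM (-0.92 and -0.96). Cox17 stayed between -0.01 and 0.10 and Surf1 between -0.10 and 0.01, so their signs depended on the scaling.

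**Figure D2:**
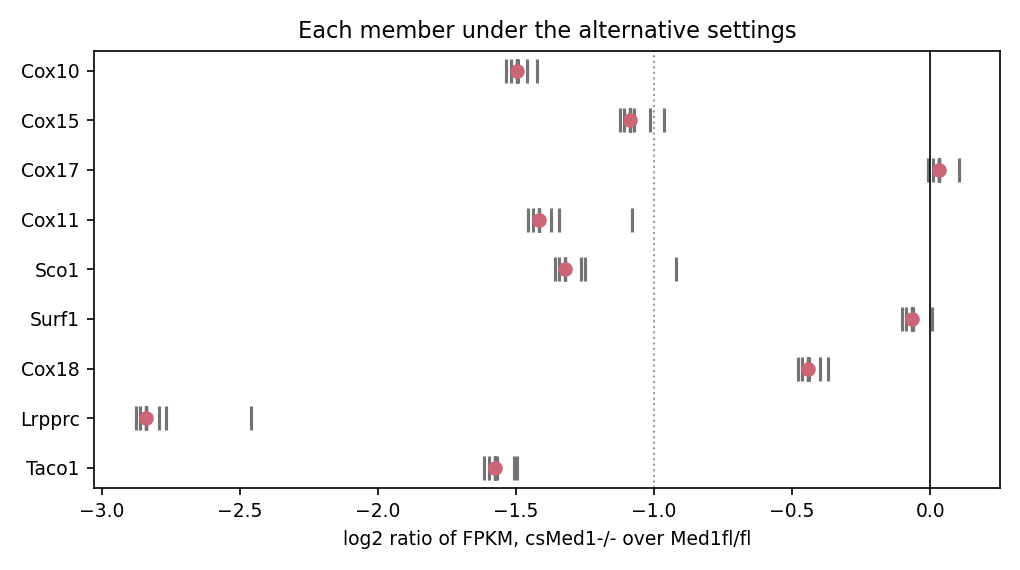
Log2 ratio of csMed1-/- to Med1fl/fl FPKM for the 9 assembly factors with their own row, as reported (dots) and under the alternative pseudocounts, filters and scalings (ticks), with the 2-fold line dotted and no error bars because each genotype has 1 library. Cox15 and Sco1 have a tick on the other side of the 2-fold line, at -0.96 and -0.92, and Lrpprc stays at -2.46 or lower.

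Overlap with other genes differed among the members. On the opposite strand, 50.4% of the 50-nt stretches of Cox11 occur in Tom1l1, 14.7% of those of Taco1 in Taco1os, 8.32% of those of Cox15 in Entpd7 and 8.01% of those of Surf1 in Surf2. The libraries were directional, but whether strand was used in the counting is not given in the sources used here. Tom1l1 had 3.94 FPKM in Med1fl/fl and 3.40 FPKM in csMed1-/- heart, close to Cox11 in level. On the same strand, 52.7% of the 50-nt stretches of Cox17 occur in the read-through gene Gm21987, which has no row of its own here. For Cox10 and Cox18 the shared part was under 0.1%. For Lrpprc it was 0.74% on the same strand and 1.01% on the opposite strand. For Sco1 it was 3.34% and 1.44%, spread over 121 other genes.

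The share of lower genes was similar between classes of transcript length, while the share of higher genes was smaller among long transcripts. Among the genes with a coding reference transcript, 15.4% of those under 1000 bases were at least 2-fold lower, as were 17.5% of those of 1000 to 2000 bases, 18.1% of those of 2000 to 4000 bases and 18.3% of those of 4000 bases or more. The share at least 2-fold higher was 18.2% in the shortest class and 10.5% in the longest, and the median log2 ratio was 0.05 and -0.19. The part of length in the members' ratios was not tested. Of the members, Cox17 was the shortest at 444 bases, and the lower genes ran from Cox11 at 1224 bases to Cox15 at 4798 bases. Surf1 had 1173 bases, Cox18 1307 and Taco1 1383. By length class, 0 of 1 member under 1000 bases and 2 of 4 members of 1000 to 2000 bases were at least 2-fold lower. So were 2 of 2 members of 2000 to 4000 bases and 2 of 2 of 4000 bases or more.

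Of the 10 genes, 5 start head to head with another gene that has a row here, within 1000 bases on the opposite strand. Each such pair faces a common promoter region. Genes without a row were not searched. For the 3 pairs that do not overlap, the stretch between both starts is given to let these short regions be compared. Each is read 5′ to 3′ on the strand of the member, from GRCm38.p6 (RefSeq promoter table), and capitals mark CG pairs:

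Cox10 and 2810001G20Rik, chr11:64079469-64079483, minus strand: gaagtccCGcctcac

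Sco1 and Adprm, chr11:67052595-67052669, plus strand: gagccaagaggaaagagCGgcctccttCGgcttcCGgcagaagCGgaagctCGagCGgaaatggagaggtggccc

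Cox11 and Stxbp4, chr11:90638085-90638172, plus strand: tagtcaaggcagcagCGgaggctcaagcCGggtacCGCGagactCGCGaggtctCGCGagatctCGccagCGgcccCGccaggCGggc

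These stretches hold 15, 75 and 88 bases and 1, 6 and 12 CG pairs. The starts of Cox15 and Cutc, which encodes a protein related to a bacterial copper homeostasis factor, are 4 bases apart, and the starts of Surf1 and Surf2 are 163 bases apart with the genes overlapping. The partners did not follow the members to the same degree. 2810001G20Rik, a non-coding antisense gene, had 7.57 FPKM in Med1fl/fl and 7.24 FPKM in csMed1-/- heart, a log2 ratio of -0.06 beside -1.50 for Cox10. Cutc had 3.01 and 0.896 FPKM, a log2 ratio of -1.75 beside -1.09 for Cox15. Adprm had 3.63 and 2.19 FPKM (-0.73 beside -1.32 for Sco1), and Surf2 had 10.3 and 8.23 FPKM (-0.33 beside -0.06 for Surf1). Stxbp4 was under 1 FPKM in both libraries, at 0.365 and 0.107 FPKM. Of the 4 partners at 1 FPKM or more, 1 (Cutc) was at least 2-fold lower.

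**Figure D3:**
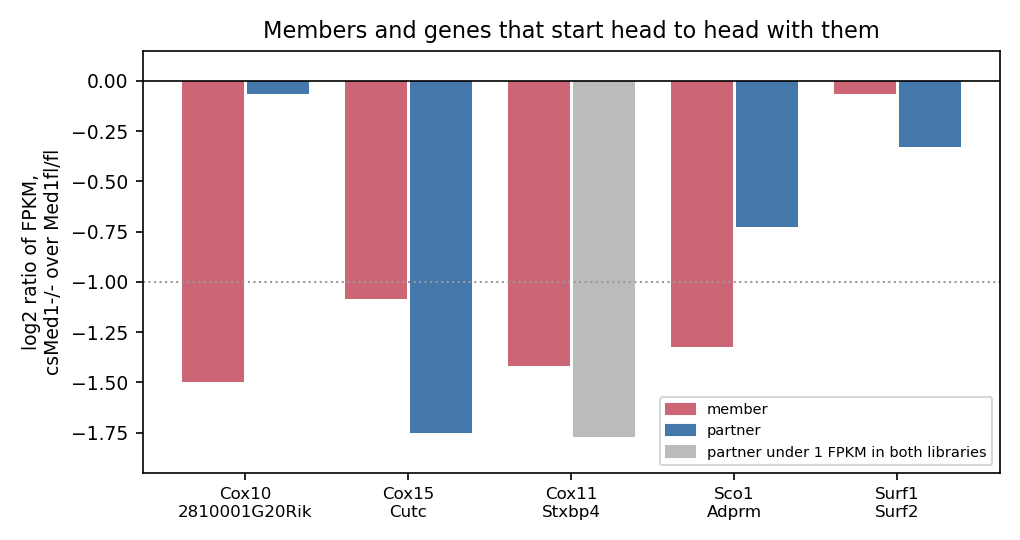
Log2 ratio of csMed1-/- to Med1fl/fl FPKM for 5 members (red) and the genes that start head to head with them (blue, or grey for a partner under 1 FPKM in both libraries), 1 library per genotype and so no error bars, with the 2-fold line dotted. The pairs differ from each other, from Cox10 at -1.50 with a partner at -0.06 to Cox15 at -1.09 with a partner at -1.75.

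Promoter sequences of 250 bases before to 50 after the start were at hand for 8 of the 10 genes (not for Cox17 and Cox18) from the RefSeq table. They held a median of 62.8% G and C and 23 CG pairs, against 52.7% and 7 over all 32851 promoters. Motifs were sought on both strands. The NRF1 motif GCGCNTGCG was found in 0 of the 8, against 6.31% of all promoters, and the ERR motif TNAAGGTCA in 0 of the 8, against 1.28%. For motifs this rare, 0 is the likeliest count in any 8 promoters, so no conclusion is drawn from it. The YY1 motif AANATGGCG was found in 1 of the 8, against 2.38%. That match lies in Cox10, at base 22 counted from the RefSeq start, and is shown with its surroundings (chr11:64079433-64079462, minus strand, match in capitals):

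Cox10 start region: ggcgggctagcAAGATGGCGgcgcccagga

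A smaller share of the other genes of complex IV assembly was at least 2-fold lower. In a list of 24, 20 had their own row, 12 of them under an older symbol, and all 20 were kept. Another 3 shared a row with a different gene, and Cmc4 was not analysed here. Of these, 7 were at least 2-fold lower and 2 at least 2-fold higher, with a median log2 ratio of -0.65. The lowest were Coa7 (-1.78), Fastk (-1.34) and Oxa1l (-1.30), the last of which encodes the insertase related to Cox18. Fastk, counted among the 7, is not an established complex IV assembly factor. The highest were Cox19, Pet100 and Fdxr. Cox19, a copper-binding partner of Cox11, had 57.9 FPKM in Med1fl/fl and 250.5 FPKM in csMed1-/- heart, 4.33-fold higher (log2 ratio 2.11), and so exceeded Cox11 10.9-fold in control and 125.9-fold in csMed1-/- heart. Pet100 had a log2 ratio of 1.07, but 71.3% of its 50-nt stretches occur in Pcp2 on the opposite strand. Fdxr, the reductase that feeds electrons to ferredoxin, was within 2-fold (0.47).

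The subunits that the factors assemble differed less. Of 19 listed complex IV subunit genes the 16 nuclear ones had a row. Of these, 3 were at least 2-fold lower, which is 18.8% beside the 18.0% of all genes, and 0 were at least 2-fold higher. Their median log2 ratio was -0.49. The 3 were Cox7a1 (-1.48), Cox6a2 (-1.21) and Cox5a (-1.16), of which Cox7a1 and Cox6a2 are the heart and muscle isoforms. Their counterparts in other tissues were within 2-fold, with Cox6a1 at 0.29 and Cox7a2 at -0.40. Cox8b, another heart and muscle isoform, was also within 2-fold (-0.36). Cox6b2 (0.29) and Cox8a (0.27) were the other subunit genes above control. With scaling to the 75th percentile, 4 of the 16 were at least 2-fold lower, beside 18.8% of all kept genes. With scaling without the 100 highest genes it was also 4, beside 18.4%.

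Assembly genes of other complexes had ratios close to those of the 9 factors. Of 14 complex I assembly genes, 7 were at least 2-fold lower and 0 at least 2-fold higher, with a median of -1.07 (log2) and the lowest value in Ndufaf4 (-2.14). Of 10 assembly genes of complexes III and V, 7 were at least 2-fold lower and 0 at least 2-fold higher, with a median of -1.57 and the lowest value in Lyrm7 (-2.94). The median of the 9 cytochrome c oxidase factors, -1.32, lay between those of these 2 lists.

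Genes for the supply of both cofactors went both ways. Of 10 copper handling genes 8 were kept, 2 of them at least 2-fold lower and 2 at least 2-fold higher, with a median log2 ratio of -0.15. Among all kept genes, 18.0% were at least 2-fold lower and 13.6% at least 2-fold higher. Slc25a3, whose protein carries phosphate and copper into the matrix, had 2164 FPKM in Med1fl/fl and 844.7 FPKM in csMed1-/- heart (log2 ratio -1.36), and the copper importer Slc31a1 had a log2 ratio of -1.16. The higher ones were metallothionein Mt2, with 92.9 and 899.7 FPKM (3.28), and the chaperone Atox1, with 258.4 and 604.9 FPKM (1.23). The other metallothionein listed, Mt1, was within 2-fold with 1614 and 1474 FPKM (-0.13). The 10 heme synthesis genes had a median log2 ratio of -0.32. Of these, 4 were at least 2-fold lower, among them Alad (-1.61), Cpox (-1.43) and Alas1 (-1.37), which encodes the first enzyme of the pathway. Fech, which makes the heme B that Cox10 uses, had 55.7 and 55.9 FPKM. Alas2, the erythroid form of the first enzyme, was at least 2-fold higher (1.20).

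**Figure D4:**
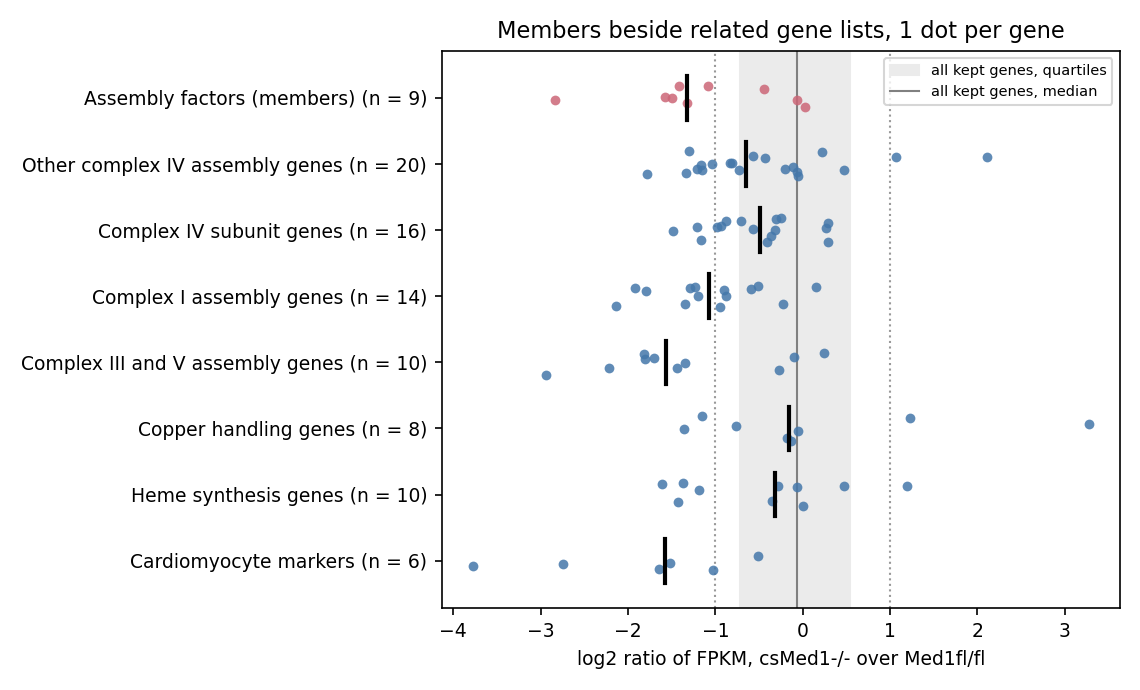
Log2 ratio of csMed1-/- to Med1fl/fl FPKM, 1 dot per gene, for the 9 assembly factors (red) and related lists (blue), with black bars at list medians, grey shading for the quartiles of all kept genes and dotted lines at 2-fold. The medians are -1.32 for the 9 factors, -0.65 for other complex IV assembly genes, -0.49 for complex IV subunits, -1.07 for complex I assembly genes, -1.57 for those of complexes III and V, and -1.58 for 6 cardiomyocyte markers, from 1 library per genotype.

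Markers of the cells of the heart moved with the genotype as well. Of 9 cardiomyocyte markers, Actc1, Mb and the joint row of Myh6 and Myh7 were listed at 0 in control and at 9189, 1039.6 and 646.9 FPKM in csMed1-/- heart, and a 0 in genes that every cardiomyocyte uses can be a failed estimate. The other 6 were all lower in csMed1-/- heart, 5 of them at least 2-fold, with summed levels of 39072 and 11126 FPKM and a median log2 ratio of -1.58. Those of 7 fibroblast markers summed to 492.3 and 1168 FPKM, with 3 at least 2-fold higher and 1 at least 2-fold lower. The 5 endothelial markers summed to 280.7 and 238.6 FPKM, with 2 at least 2-fold lower and 1 at least 2-fold higher, and the 4 smooth muscle markers to 604.5 and 1024 FPKM, with 1 lower and 2 higher. The smooth muscle sum rested on Cnn1, at 4.32 and 622.4 FPKM, while Acta2 had 572.6 and 310.0 FPKM. Of 5 macrophage markers, which summed to 47.9 and 62.2 FPKM, 1 was at least 2-fold higher. Among erythroid markers, the joint hemoglobin row of Hba-a1 and Hba-a2 had 8894 and 12084 FPKM, within 2-fold, and Alas2 had 35.8 and 82.1 FPKM. Of 4 skeletal muscle markers 2 were kept, and these went opposite ways, with the skeletal actin Acta1 at 207.1 and 2033 FPKM and Ckmt2, a mitochondrial creatine kinase also used by the heart, at 2095.7 and 890.3 FPKM. The part of these markers in the differences of the assembly factors was not tested.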

How the data were processed

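Polyadenylated heart RNA, pooled from 5 mice per genotype, was sequenced as directional 50-nt single-end libraries. The deposited FPKM values were made by the authors by alignment to mm10 with TopHat v2.0.8b and quantification of known UCSC genes with Cufflinks v2.1.1 and cuffdiff. The submitters' processing notes also list Bowtie2 and STAR without a role, as well as DESeq2. The library scaling is not given in the sources used here.

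Rows sharing a symbol were summed, and the ratio of csMed1-/- to Med1fl/fl FPKM was taken without a pseudocount. Genes detected in each library and reaching 1 FPKM in at least 1 of them were kept. The computation was checked on made-up values with known changes. Loci, transcripts and 50-nt stretches came from GENCODE M21 (GRCm38), promoters from RefSeq (GRCm38.p6), and older symbols from RefSeq synonyms. One reference transcript was taken per gene, with preference for those paired with a RefSeq entry, and 87.5% of kept genes had one.

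The members and gene lists were chosen with earlier results of these data known. Named genes were all members, Med1, the 3 lowest and 3 highest of each list at most, genes at 0, and neighbours that overlap a member or share its promoter region. Slirp, Fech, Cox7a2, Cox8b and Mt1 were added for their relation to a member or to another named gene after their values were seen. Alternatives were pseudocounts, filters, scalings, thresholds, rows kept apart and, chosen after seeing the data, the joint row of Sco2 and Tymp counted as Sco2. Python 3.11.15, numpy 2.4.6, pandas 2.3.3 and matplotlib 3.10.9 were used.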

Additional observations from a re-analysis of the deposited data

How the results depend on the processing

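No library could be left out, and no paired analysis was possible because each genotype has 1 library and the values come from no test. The number of members at least 2-fold lower was 6. It was 4 with a pseudocount of 1 FPKM, which shrinks low levels by construction, and 4 among genes at 10 FPKM or more in either library, where Cox11 and Sco1 are not kept. At a threshold of 4-fold it was 1 (Lrpprc), and it was 6 under the other alternatives. No alternative put a member at least 2-fold higher. The median log2 ratio of the members was -1.32 and became -0.96 with a pseudocount of 1 FPKM. Of 336 recomputed values 317 kept their direction and side of the threshold or, for counts, stayed within 1.5 times. Many of these could not change. Filters, rows kept apart and the Sco2 setting leave the ratio of a single member as it is. The fall from 6 to 4 members also lies within 1.5 times, so the count of 317 is no measure of robustness. The sign of Cox17 turned with scaling to the 75th percentile (-0.01) and that of Surf1 with centring on the median (0.01). The share of all kept genes at least 2-fold lower was 18.0%, and it was 12.3% with a pseudocount of 1 FPKM, 20.0% of 15930 genes without the filter and 16.3% of 5426 genes at 10 FPKM or more. At 1.5-fold and 4-fold the shares were 29.7% and 5.14%. At 4-fold, the complex I and the complex III and V assembly lists kept 1 and 2 lower genes, and the other complex IV assembly, subunit, copper and heme lists 0. At 1.5-fold, 11 complex I assembly genes and 7 subunit genes were lower. The complex I assembly median moved inside 2-fold with a pseudocount of 1 FPKM (-0.997) and at 1 FPKM or more in both libraries (-0.95).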
